A study of Drosophila melanogaster with 6 samples.

Results

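The genes described here encode the structural proteins of the insect cuticle. They were chosen by symbol alone, as every feature of the deposited table whose name begins with Cpr and a digit, Twdl, Lcp, Pcp, Ccp84A, Edg, Acp65A or resilin, and this gave 106 of 15135 features. The annotation used here holds 126 genes that match the same pattern, of which 105 were found in the table under that symbol and TwdlBeta under another spelling; the others are not analysed here. The Cpr family supplied 61 of them, the Twdl family 22, the Lcp family 13, the Ccp84A family 4 and the Edg group 3, with Acp65Aa, Pcp and resilin as single genes. Their levels were compared between Drosophila melanogaster embryos mutant for spo and wild-type embryos, with 3 polyA RNA libraries of whole embryos at stage 14 for each genotype. spo (spook) encodes a cytochrome P450 enzyme needed to make the steroid hormone ecdysone, and the study set out to find genes downstream of that hormone. The labels name the genotypes as "spo mutant" and "wild-type" only: the allele, the strain and the way mutant embryos were picked were not given in the sources used here. The series calls the libraries independent without saying whether each came from its own collection of embryos, so each p-value reflects only how far these libraries spread, which may be technical.

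The embryonic epidermis and trachea secrete a layered cuticle in which chitin fibres are bound by structural proteins and later hardened. Most structural proteins of the Cpr, Lcp, Ccp84A, Edg, Pcp and Acp65A names carry a chitin-binding stretch known as the Rebers and Riddiford sequence. The Tweedle proteins (Twdl) are a separate insect family, known from mutants with an altered body shape. Ecdysone pulses time cuticle secretion, and ftz-f1, a nuclear receptor switched on after a pulse has fallen, regulates several cuticle protein genes in later stages. The Edg genes were named for their dependence on an ecdysone pulse in imaginal discs.

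Between 50363162 and 73928734 reads per library were rebuilt from the deposited TPM values (reads per gene length, scaled to the same sum in every library). A single read in a gene of 1 kb was therefore worth 0.0315 to 0.0460 TPM. The spo transcript was scarce, at 0.610, 0.470 and 0.306 TPM in spo mutants, against 0.944, 0.726 and 0.696 TPM in wild type, and the groups did not overlap. Across all features the correlation of log2(TPM + 1) lay between 0.970 and 0.975 for libraries of different genotype and between 0.995 and 0.998 for libraries of the same genotype. A single mutant library, replicate 2, stood apart with a quality weight of 0.243, against 0.918 to 2.09 for the other libraries.

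Most cuticle protein genes were at or near the floor of detection in both genotypes. The median of the mean TPM was 0.213 over the 106 genes in spo mutants and 0.140 in wild type, against 7.95 and 7.48 over all features. A mean of at least 1 TPM, used here as the mark of a gene that is on, was reached by 25 of the 106 genes in spo mutants and by 15 in wild type, where 65% and 64.8% of all features reached it. Of the genes, 30 had fewer than 10 reads over the 6 libraries together, and none of the 106 was at 0 in all of them. No read was seen for 7 genes in any spo mutant library and for 11 genes in any wild-type library.

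More of the genes were on in spo mutants than in wild type, and the size of the gap depended on the mark. With the mark at 0.5 TPM, 35 genes were on in spo mutants and 30 in wild type. At 2 TPM, 16 were on in spo mutants and 7 in wild type. The median level of the genes was far below that of all features, so shares that cross the mark are not a like comparison. Of the 106 genes, 14 were on in both genotypes (where 62.9% of all features were), 11 in spo mutants only (10.4%, against 2.11% of all features), and Cpr78Ca alone in wild type only (0.943%, against 1.91% of all features). The 11 were Ccp84Ag, Cpr31A, Cpr50Cb, Cpr62Bc, Cpr65Eb, Cpr66D, Edg91, Lcp65Ag3, Lcp9, TwdlF and TwdlM, with means between 1.002 and 7.49 TPM in spo mutants. Without spo mutant replicate 2 the number was 10, as Cpr50Cb and Lcp9 fell below the mark and Cpr64Ad, at 1.13 TPM, rose above it. Cpr50Cb stood just inside the mark in spo mutants, at 1.002 TPM, with Cpr51A next at 1.06 TPM, while Cpr64Ad at 0.973 TPM and Cpr76Ba at 0.918 TPM stood just outside it. In wild type Cpr78Ca at 1.04 TPM and Cpr76Bc at 1.44 TPM were the nearest inside, and TwdlF at 0.875 TPM and Cpr50Cb at 0.808 TPM the nearest outside. Cpr78Ca itself had 0.526, 1.25 and 0.687 TPM in spo mutants, against 0.954, 0.911 and 1.26 TPM in wild type, so its libraries overlapped.

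**Figure D1:**
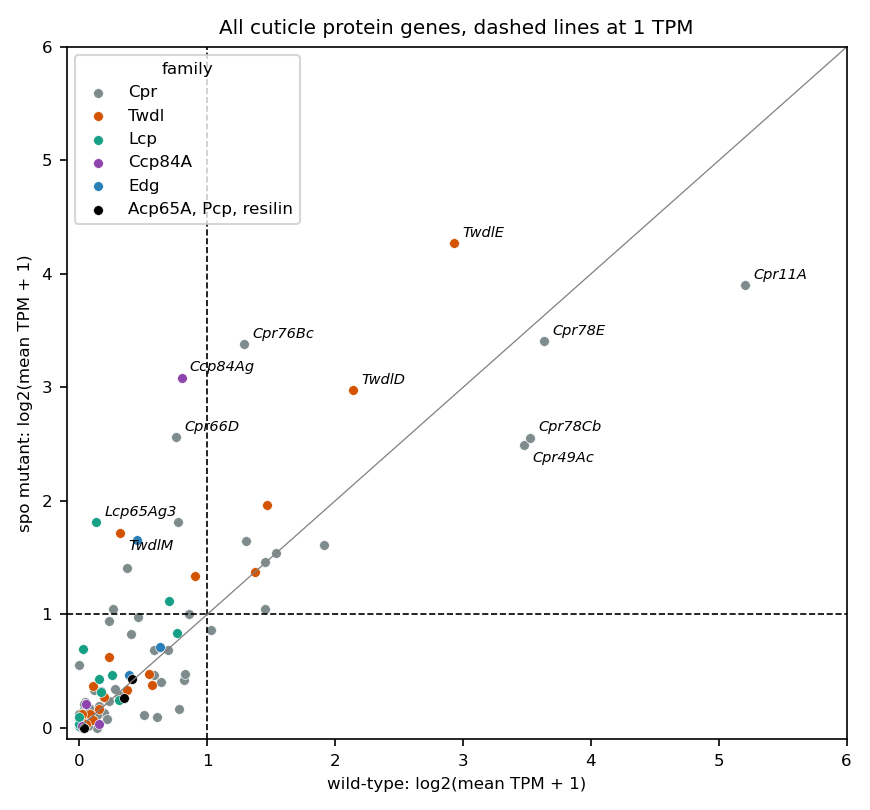
Mean level of each of the 106 cuticle protein genes in spo mutants (vertical axis) against wild type (horizontal axis), both as log2(mean TPM + 1), coloured by family, with dashed lines at 1 TPM and a grey line of equality. The 11 genes above the horizontal and left of the vertical dashed line were on in spo mutants only, and Cpr11A lies farthest below the line of equality.

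Of the 106 genes, 23 had at least 1 TPM in at least 3 libraries and entered the test (21.7%, against 66.2% of all features). The test was limma on log2(TPM + 1) across all 10019 features past the same filter, with Benjamini-Hochberg adjustment and a threshold of 0.05. Of these 23 genes 13 were higher in spo mutants, where 33.9% of all tested features were, 5 were lower, where 27.9% were, and 5 did not pass. Among the 23, 7 reached the filter through spo mutant libraries alone and none through wild-type libraries alone, so nothing is read from their shares. Without the filter, limma called 27 of the 106 genes higher, where 23.4% of all features were, and 9 lower, where 19.9% were. Of the 76 genes with at least 10 reads over all libraries, voom on rebuilt reads called 22 higher (28.9%, against 26.3% of all such features) and 9 lower (11.8%, against 25.6%). Over all 106 genes, filtered or not, the authors' deposited table of edgeR results called 25 higher in spo mutants (23.6%, against 21.6% of all features) and 10 lower (9.43%, against 21.4%). The higher share lies near that of all features and the lower share below it, while many of the genes had few reads. All 3 spo mutant libraries lay above all wild-type libraries for 30 of the 106 genes (28.3%, against 28.7% of all features) and below them for 9 (8.49%, against 24.3%). In whole embryos, fewer cells that make a transcript and less of it per cell cannot be told apart.

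**Figure D2:**
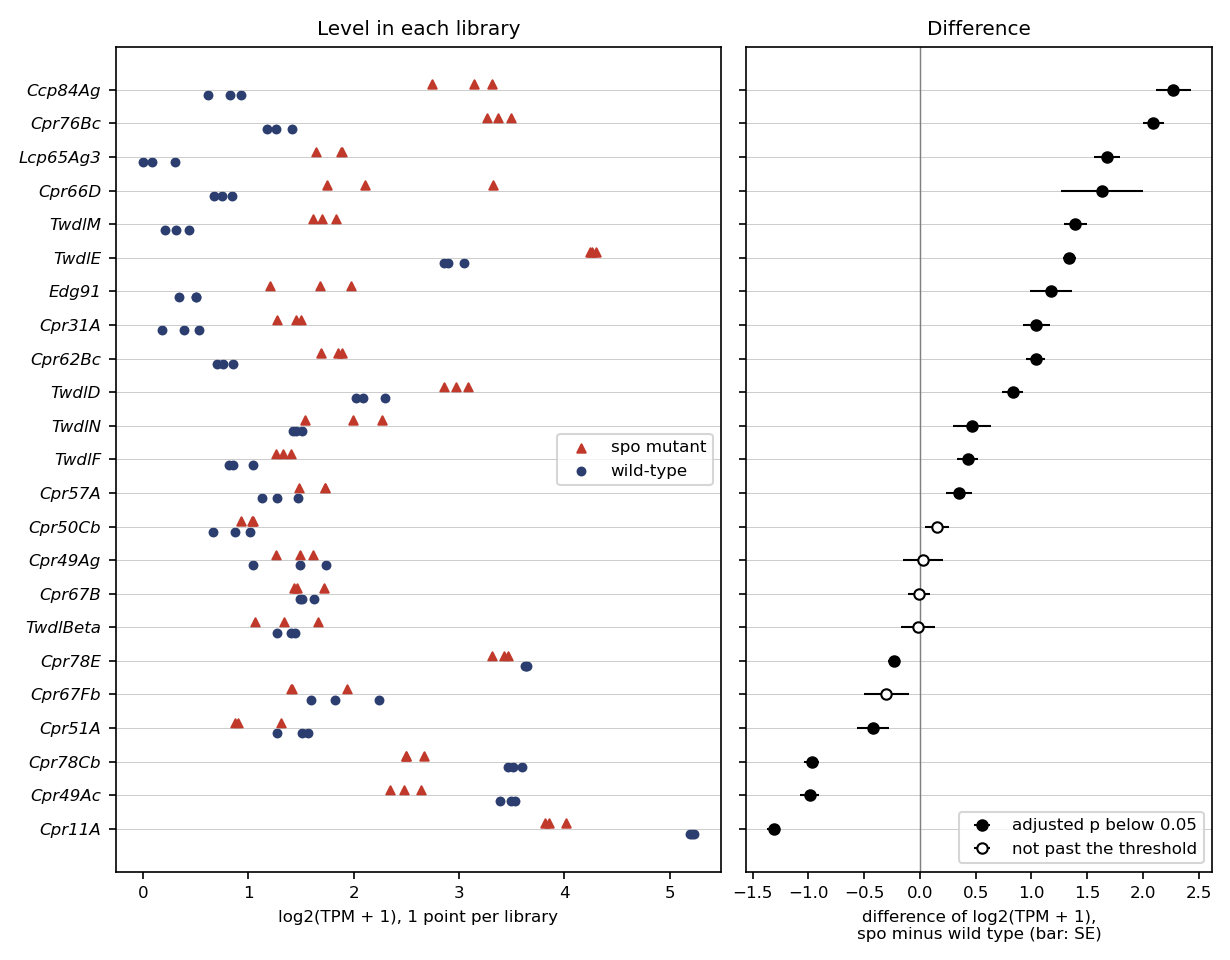
The 23 cuticle protein genes that entered the test, ordered by their difference. The left panel gives log2(TPM + 1) in each spo mutant library (triangles) and wild-type library (circles), and the right panel the limma difference, spo mutant minus wild type, with its SE. Filled points passed the threshold, and the differences run between -1.31 for Cpr11A and 2.27 for Ccp84Ag.

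The family sums differed in direction. The sum was 126 ± 0.903 TPM in spo mutants and 113 ± 2.0 TPM in wild type (SD, n = 3 each), a ratio of 1.12. The Cpr sum was 71.4, 75.5 and 70.0 TPM in spo mutants, against 93.7, 89.9 and 89.6 TPM in wild type. The Twdl sum was 37.0, 34.9 and 35.8 TPM in spo mutants, against 15.96, 17.8 and 15.94 TPM in wild type. The mutant libraries thus lay below every wild-type library for the Cpr sum and above every wild-type library for the Twdl sum. The lower Cpr sum rested on Cpr11A. Without Cpr11A the other 60 Cpr genes summed to 56.5 to 60.3 TPM in spo mutants and 53.6 to 57.3 TPM in wild type, which overlapped. Of the 61 Cpr means, 35 were higher in spo mutants and 26 lower. Without Cpr11A, Cpr49Ac and Cpr78Cb the other 58 Cpr genes summed to 48.9 ± 1.39 TPM in spo mutants and 34.4 ± 1.02 TPM in wild type. The genes left out were chosen after their values were seen. TwdlE made up much of the Twdl sum, and without it the family stood at 17.6 ± 1.302 TPM in spo mutants and 9.91 ± 0.532 TPM in wild type.

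**Figure D3:**
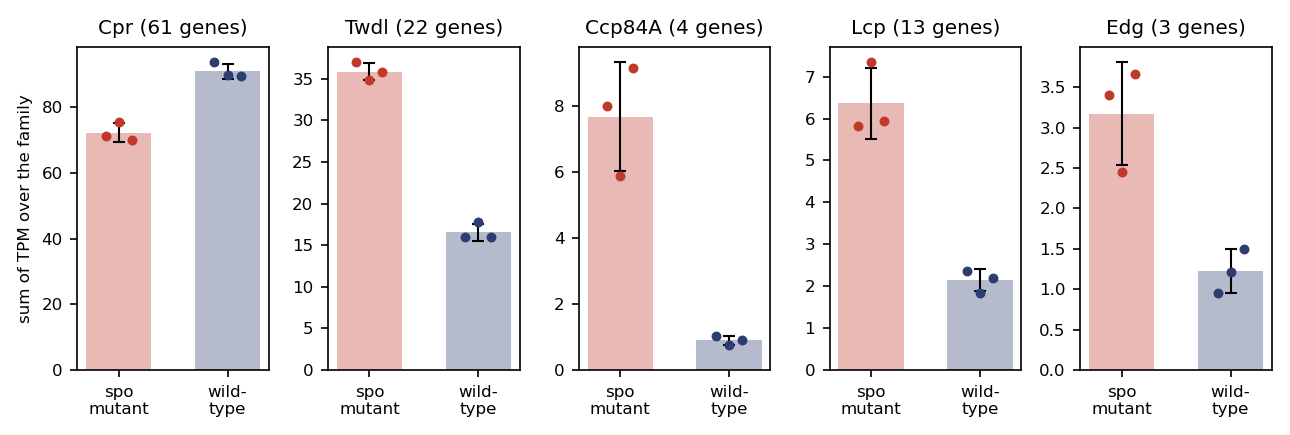
Summed TPM of the 5 families with more than 1 gene, with spo mutants left of wild type in each panel. Bars are means, error bars SD and points the 3 libraries, and each panel has its own vertical axis starting at 0. The Cpr sum is lower in spo mutants, and the Twdl, Ccp84A, Lcp and Edg sums are higher, with no overlap between genotypes. The Ccp84A and Edg differences rest on Ccp84Ag and Edg91.

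Among the Cpr genes, which encode chitin-binding cuticle proteins of the Rebers and Riddiford type, 14 entered the test, of which 5 were higher in spo mutants, 5 lower and 4 did not pass, against 33.9% higher and 27.9% lower of all tested features. Of the 5 higher genes, Cpr31A, Cpr62Bc and Cpr66D entered through mutant libraries alone. The authors' deposited table called 14 of the 61 higher (23.0%, against 21.6% of all features) and 9 lower (14.8%, against 21.4%). In wild type the highest level of any cuticle protein gene belonged to Cpr11A (X:12486970-12489448, dm6), which had 13.1, 15.2 and 13.5 TPM in spo mutants, against 36.4, 35.5 and 36.0 TPM in wild type. All mutant libraries lay far below all wild-type libraries, with a log2 difference of -1.31 (SE 0.06, limma adjusted p = 4.12e-06), a level 2.58-fold higher in wild type. Cpr49Ac (2R:12386666-12390057) had 4.07, 5.24 and 4.55 TPM in spo mutants, against 10.6, 10.3 and 9.50 TPM in wild type, a log2 difference of -0.99 (SE 0.09, limma adjusted p = 6.98e-05). Cpr78Cb (3L:21294492-21296698) had 4.66, 5.35 and 4.66 TPM in spo mutants, against 11.1, 10.4 and 10.1 TPM in wild type, a log2 difference of -0.97 (SE 0.07, limma adjusted p = 2.76e-05). The highest mutant library lay below the lowest wild-type library for each of these 3 genes.

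The remaining lower Cpr calls were smaller. Cpr78E had 10.04, 8.96 and 9.79 TPM in spo mutants, against 11.3, 11.5 and 11.4 TPM in wild type, a log2 difference of -0.23 (SE 0.05, limma adjusted p = 0.00699). The authors' deposited table gave Cpr78E a false discovery rate of 0.0608 and did not call it. Cpr51A had 1.49, 0.869 and 0.828 TPM in spo mutants, against 1.96, 1.42 and 1.84 TPM in wild type, and its groups overlapped. Its log2 difference of -0.42 (limma adjusted p = 0.0378) was lost under several alternatives, with an adjusted p of 0.0877 without mutant replicate 2, 0.112 without mutant replicate 3, 0.116 without wild-type replicate 1 and 0.104 without wild-type replicate 3.

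The higher Cpr genes were led by Cpr76Bc (3L:19520945-19527272), with 9.37, 8.64 and 10.3 TPM in spo mutants, against 1.67, 1.26 and 1.40 TPM in wild type. This was a 6.538-fold higher mean, with a log2 difference of 2.10 (SE 0.09, limma adjusted p = 4.29e-06). Cpr66D (3L:8640439-8643584) had 3.29, 9.02 and 2.35 TPM in spo mutants, against 0.793, 0.685 and 0.599 TPM in wild type. Replicate 2 of the mutants was far above the other mutant libraries, and the fold of 7.06 became 4.08 without it. The log2 difference of Cpr66D was 1.63 (SE 0.37, limma adjusted p = 0.00655).

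Cpr62Bc had 2.60, 2.23 and 2.71 TPM in spo mutants, against 0.807, 0.630 and 0.694 TPM in wild type, a log2 difference of 1.04 (SE 0.09, limma adjusted p = 6.45e-05). Cpr31A had 1.84, 1.41 and 1.73 TPM in spo mutants, against 0.130, 0.444 and 0.307 TPM in wild type, a log2 difference of 1.04 (SE 0.12, limma adjusted p = 0.000258). Both genes were on in spo mutants only, with no overlap between genotypes. Cpr57A had 1.79, 2.31 and 2.30 TPM in spo mutants, against 1.42, 1.78 and 1.19 TPM in wild type (difference 0.35, limma adjusted p = 0.0340), and it did not pass without mutant replicate 2 or 3 or wild-type replicate 1 or 3 (limma adjusted p = 0.0779 to 0.106). Its values equal those of the overlapping odorant-binding gene Obp57d in every library, so the reads of these genes cannot be told apart.

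The other 4 Cpr genes that entered the test did not pass it. Cpr49Ag had 2.05, 1.39 and 1.80 TPM in spo mutants, against 2.33, 1.81 and 1.07 TPM in wild type (difference 0.03, limma adjusted p = 0.902). Cpr67B had 2.28, 1.76 and 1.69 TPM in spo mutants, against 1.81, 2.08 and 1.84 TPM in wild type (limma adjusted p = 0.969). The libraries of both genotypes were mixed for both genes, as they were for Cpr50Cb (difference 0.15, limma adjusted p = 0.264) and Cpr67Fb (difference -0.30, limma adjusted p = 0.237).

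In the Twdl family 6 of 22 genes entered the test, 5 were higher in spo mutants and none was lower, against 33.9% and 27.9% of all tested features. TwdlM entered through mutant libraries alone, and TwdlF reached 1 TPM in every mutant library but in only a single wild-type library. The authors' deposited table called 7 of the 22 higher (31.8%, against 21.6% of all features) and none lower (against 21.4%). TwdlE (2L:7857957-7860839) was the highest of the family in both genotypes and the highest of all 106 genes in spo mutants, at 18.2, 18.7 and 18.0 TPM in spo mutants, against 6.24, 7.24 and 6.43 TPM in wild type. Its log2 difference was 1.34 (SE 0.06, limma adjusted p = 4.58e-06), a 2.76-fold higher mean. TwdlE shares exon sequence with lectin-28C on the other strand, which had 0.862, 1.04 and 1.02 TPM in spo mutants, against 0.942, 0.718 and 0.962 TPM in wild type.

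TwdlD (3R:26640025-26641054) had 7.49, 6.84 and 6.24 TPM in spo mutants, against 3.26, 3.92 and 3.07 TPM in wild type, a log2 difference of 0.83 (SE 0.09, limma adjusted p = 0.000244). TwdlD is the Tweedle gene in which the body-shape mutants were found. TwdlM (3R:26619118-26620224) showed the largest fold of the family, 9.18, with 2.55, 2.05 and 2.25 TPM in spo mutants, against 0.348, 0.245 and 0.153 TPM in wild type (difference 1.39, SE 0.10, limma adjusted p = 3.02e-05). TwdlF had 1.64, 1.41 and 1.51 TPM in spo mutants, against 0.806, 1.05 and 0.765 TPM in wild type (difference 0.43, limma adjusted p = 0.00551). All mutant libraries lay above all wild-type libraries for these 3 genes.

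TwdlN had 3.81, 1.91 and 2.97 TPM in spo mutants, against 1.68, 1.85 and 1.74 TPM in wild type. Replicate 2 of the mutants lay close to wild type, and the difference of 0.47 (SE 0.17, limma adjusted p = 0.0480) rested on the edge of the threshold. It did not pass with the replicate number as a block (limma adjusted p = 0.0510), nor without any single library other than mutant replicate 2 (0.0907 to 0.119). TwdlBeta had 1.09, 1.53 and 2.17 TPM in spo mutants, against 1.72, 1.64 and 1.41 TPM in wild type, and its difference of -0.02 did not pass (limma adjusted p = 0.935).

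Ccp84Ag was the single Ccp84A gene that was on, and on the log2(TPM + 1) scale it had the largest difference of the cuticle protein genes tested. Ccp84Ag entered the test through mutant libraries alone. With a pseudocount of 0.1 its difference of 3.18 was smaller than the 3.90 of Lcp65Ag3, and with voom its 3.30 was smaller than the 4.74 of Lcp65Ag3. Ccp84Ag (3R:6686728-6688039) had 7.81, 5.71 and 8.96 TPM in spo mutants, against 0.907, 0.536 and 0.775 TPM in wild type. The lowest mutant library stood well above the highest wild-type library, with a difference of 2.27 (SE 0.16, limma adjusted p = 2.50e-05) and a 10.1-fold higher mean. Its neighbours stayed near the floor: Ccp84Ad had 3, 3 and 3 reads in spo mutants and 1, 1 and 0 reads in wild type. Ccp84Ac had 0, 1 and 1 reads in spo mutants and 2, 3 and 5 reads in wild type, and the authors' deposited table called it lower at a false discovery rate of 0.0470.

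Edg91 was the only Edg gene that entered the test, through mutant libraries alone, and it was higher in spo mutants. Edg91 (3R:17610856-17611511) had 2.21, 1.31 and 2.94 TPM in spo mutants, against 0.264, 0.417 and 0.417 TPM in wild type, a log2 difference of 1.18 (SE 0.19, limma adjusted p = 0.00131). Edg84A, a direct target of ftz-f1 in prepupae, had 0.666, 0.789 and 0.459 TPM in spo mutants, against 0.448, 0.540 and 0.658 TPM in wild type. Edg78E had 0.524, 0.351 and 0.262 TPM in spo mutants, against 0.247, 0.261 and 0.423 TPM in wild type. Both genes overlapped between genotypes, with false discovery rates of 0.802 for Edg84A and 0.778 for Edg78E in the authors' deposited table.

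Among the Lcp genes, named for larval cuticle proteins, only Lcp65Ag3 entered the test, through mutant libraries alone. Lcp65Ag3 (3L:6130386-6130989) had 2.12, 2.71 and 2.69 TPM in spo mutants (25, 39 and 46 reads), against 0, 0.232 and 0.0580 TPM in wild type (0, 3 and 1 reads). On the log2 scale the difference was 1.68 (SE 0.12, limma adjusted p = 2.74e-05). Pooled reads gave a 27.8-fold ratio with an exact 95% counting interval of 10.6 to 104, which covers counting error only. Lcp65Ag2 had 6, 6 and 16 reads in spo mutants and 0, 0 and 1 reads in wild type, a ratio of 28.3 with an interval of 4.68 to 1158. These genes and Lcp65Ag1, with 0, 2 and 1 reads in spo mutants and none in wild type, are near-identical copies, so how reads divide among them is uncertain. Lcp65Ag3 also overlaps an antisense RNA, asRNA:CR46005, and the strand setting was not given in the sources used here.

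Lcp9 was on in spo mutants only, and it fell below the mark there without mutant replicate 2. It had 1.17, 1.53 and 0.804 TPM in spo mutants, against 0.606, 0.640 and 0.639 TPM in wild type. The authors' deposited table gave Lcp9 a false discovery rate of 0.107. Lcp65Ad overlapped, with 0.822, 0.919 and 0.617 TPM in spo mutants, against 0.969, 0.409 and 0.716 TPM in wild type. The main third-instar cuticle genes Lcp1, Lcp2, Lcp3 and Lcp4 had at most 10 reads in any library, and none was called in the authors' deposited table.

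The 3 single genes stayed low in both genotypes. The gene for resilin, the elastic protein of flexible cuticle, had 0.493, 0.256 and 0.294 TPM in spo mutants, against 0.256, 0.360 and 0.371 TPM in wild type. Pcp, a pupal cuticle gene that lies within the span of Gart, had 0.192, 0.263 and 0.132 TPM in spo mutants, against 0.333, 0.351 and 0.132 TPM in wild type. Acp65Aa, an adult cuticle gene, had no read in spo mutants and 1 read in wild type. None of these was called in the authors' deposited table.

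Of the 83 genes under the filter, 12 were called higher (14.5%, against 21.6% of all features) and 6 lower (7.23%, against 21.4%) in the authors' deposited table, each with 6 to 195 reads over the 6 libraries. Cpr97Eb (3R:27089704-27091130) had 13, 10 and 16 reads in spo mutants and none in any wild-type library. Set against an assumed floor of 3 reads over the wild-type group, its level was 13.1-fold higher in spo mutants. That ratio is set by the floor and is not a confidence limit. Cpr76Ba had 0.943, 0.918 and 0.893 TPM in spo mutants, against 0.0510, 0.269 and 0.202 TPM in wild type, and Cpr65Eb had 1.42, 0.902 and 0.884 TPM in spo mutants, against 0.278, 0.126 and 0.188 TPM in wild type. The authors' deposited table gave log2 fold changes of 2.33 for Cpr76Ba (false discovery rate 1.96e-07) and 2.36 for Cpr65Eb (1.64e-08). The mutant libraries lay above all wild-type libraries for these 3 genes.

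In the lower direction, Cpr67Fa1 had 3, 0 and 2 reads in spo mutants and 11, 11 and 9 reads in wild type, and the neighbouring Cpr67Fa2 had 1, 0 and 2 reads in spo mutants and 11, 7 and 5 reads in wild type. The authors' deposited table gave them log2 fold changes of -2.55 and -2.83. Cpr49Ab had 0, 3 and 3 reads in spo mutants and 7, 7 and 16 reads in wild type, with a log2 fold change of -2.25 in the authors' deposited table. Cpr73D had 16, 14 and 30 reads in spo mutants and 33, 41 and 61 reads in wild type, but it shares exon sequence with the far more abundant Ogdh on the other strand, which had 53.6 to 54.8 TPM in spo mutants and 45.6 to 46.1 TPM in wild type.

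**Figure D4:**
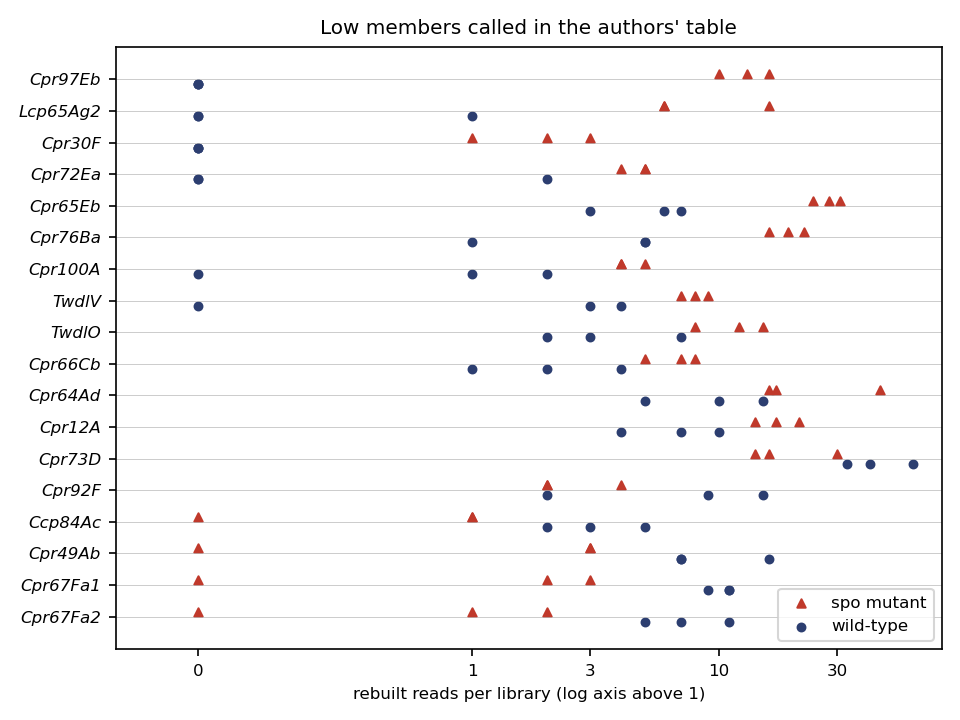
Rebuilt reads per library, on a symmetric log axis, for the 18 cuticle protein genes under the filter that the authors' deposited table called. Triangles are spo mutant libraries and circles wild-type libraries, ordered by the authors' log2 fold change. Cpr97Eb, at 10 to 16 reads in spo mutants and 0 in wild type, has the largest positive change.

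Clusters were taken as runs of 3 or more cuticle protein genes of the table with at most 20 kb between neighbours. In most clusters a few genes carried the level, and many neighbours had too few reads to show a direction. In the Twdl cluster (3R:26619118-26641054, 9 genes) the mean was higher in spo mutants for 8 genes. TwdlM, TwdlN and TwdlD were on in spo mutants, and TwdlO had 0.456, 0.701 and 0.471 TPM in spo mutants, against 0.0987, 0.156 and 0.273 TPM in wild type. The authors' deposited table called these 4 genes higher (44.4% of the cluster, against 21.6% of all features) and none lower (against 21.4%). The false discovery rate of TwdlO was 0.00614. TwdlB, TwdlL, TwdlP and TwdlS had at most 2 reads in any library. In the smaller Twdl cluster (3R:4247020-4255833, 3 genes) the mean was higher in spo mutants for TwdlF, TwdlG and TwdlV. There the authors' deposited table called TwdlF and TwdlV higher (66.7%, against 21.6% of all features) and none lower (against 21.4%).

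In the Ccp84A cluster (3R:6684445-6702877, 5 genes) Ccp84Ag was the single gene on, and in the Lcp65A cluster (3L:6130386-6161589, 12 genes) Lcp65Ag3 was. In the Cpr76B cluster (3L:19517552-19538289, 4 genes) all 4 means were higher in spo mutants. Cpr76Bc and Cpr76Ba were higher in every mutant library than in any wild-type library, while Cpr76Bb and Cpr76Bd had at most 3 reads in any library.

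Of the 5 genes called lower by limma, Cpr49Ac and Cpr78Cb lay in a cluster. In the Cpr49A cluster (2R:12376626-12415170, 7 genes) Cpr49Ac was lower in spo mutants, while Cpr49Ag did not pass the test. Cpr49Ab, which is under the filter, had fewer reads in every mutant library than in any wild-type library. In the Cpr78C cluster (3L:21291860-21301171, 4 genes, with Edg78E among them) Cpr78Cb was lower, while Cpr78Ca, Cpr78Cc and Edg78E overlapped between genotypes. In the Cpr67F cluster (3L:10889990-10894693, 3 genes) all 3 means were lower in spo mutants. Cpr67Fa1 and Cpr67Fa2 had fewer reads in every mutant library than in any wild-type library, while Cpr67Fb overlapped.

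**Figure D5:**
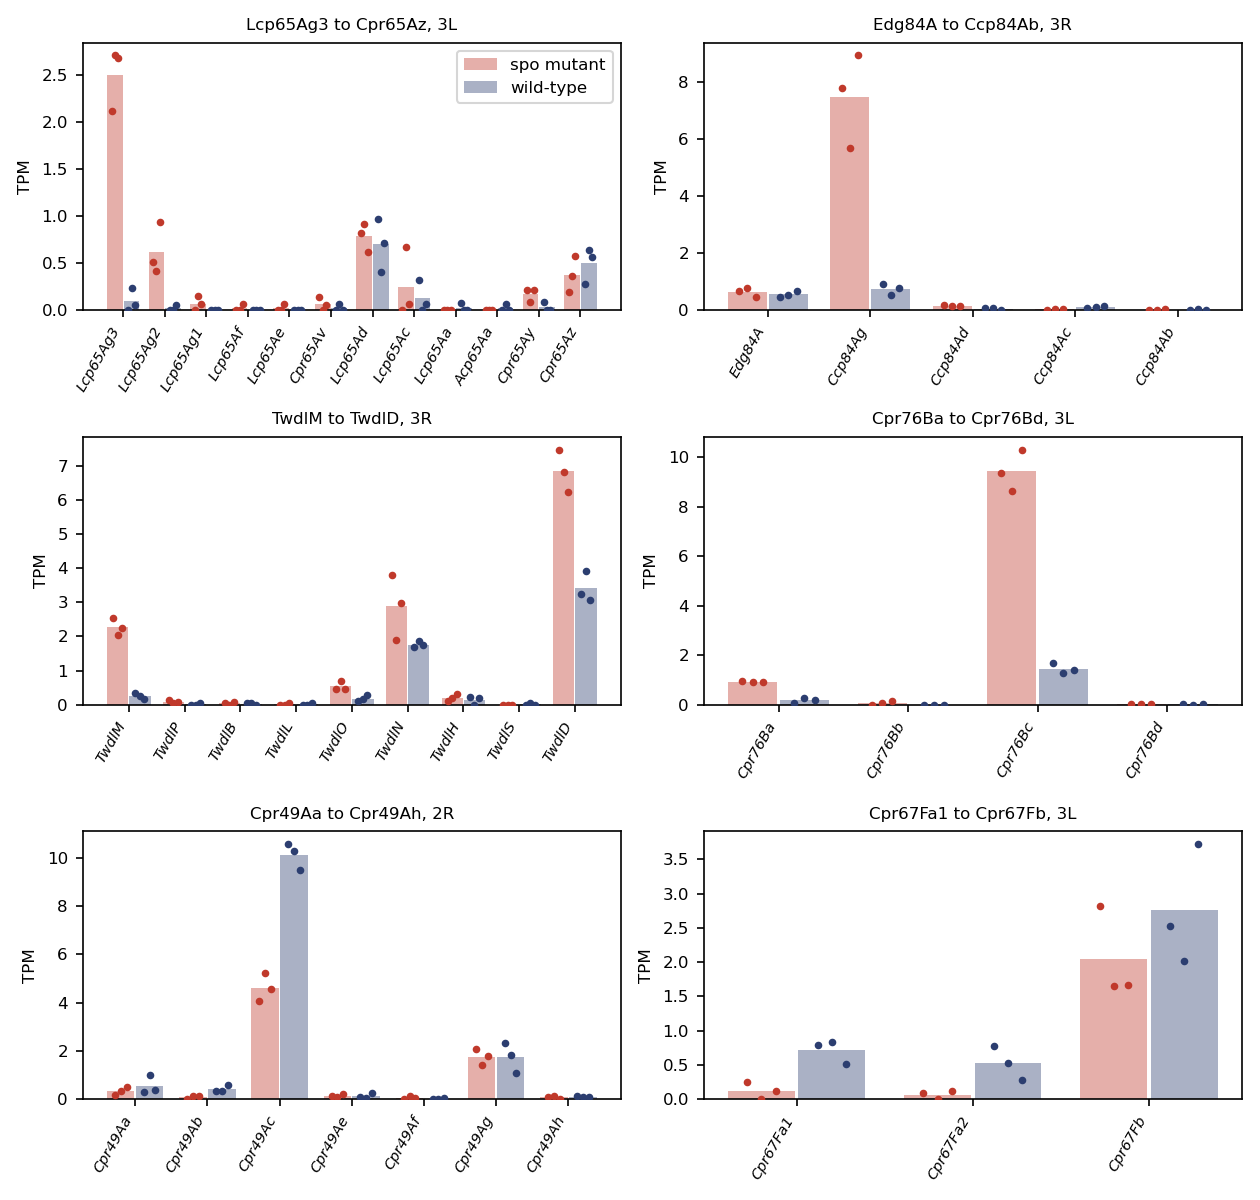
TPM of the genes of 6 clusters in their order along the chromosome, with spo mutants left of wild type for each gene. Bars are means and points the 3 libraries, and each panel has its own axis starting at 0. A single gene or a few genes carry most of the level in each cluster, such as Ccp84Ag in the Ccp84A cluster and Cpr49Ac in the Cpr49A cluster.

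Other genes of cuticle formation moved in both directions. Among all tested features 33.9% were higher and 27.9% lower in spo mutants. Of 7 other chitin-binding and cuticle genes tested, 2 were higher and 5 lower. snsl, a component of the surface barrier, had 4.09, 4.05 and 4.87 TPM in spo mutants, against 0.431, 0.325 and 0.487 TPM in wild type (difference 1.92, limma adjusted p = 6.09e-06). Gasp, a chitin-binding protein of the trachea, had 21.1, 24.5 and 19.2 TPM in spo mutants, against 82.2, 77.7 and 79.2 TPM in wild type (difference -1.84, limma adjusted p = 4.26e-06). Of 16 genes of chitin synthesis and assembly, 3 were higher and 10 lower, among them the chitin synthase gene kkv (difference -1.12, limma adjusted p = 2.03e-05). Of 8 tanning genes tested, 4 were higher and 2 lower, with the N-beta-alanyldopamine synthase gene e higher (difference 1.24, limma adjusted p = 6.33e-05) and Pu, which makes a cofactor for pigment synthesis, lower (difference -2.17, limma adjusted p = 0.00172).

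Of 15 tested regulators of cuticle genes, 4 were higher and 9 lower in spo mutants, against 33.9% and 27.9% of all tested features. ftz-f1 had 19.2, 21.5 and 19.2 TPM in spo mutants, against 0.973, 0.952 and 0.919 TPM in wild type (difference 3.43, limma adjusted p = 7.02e-07). Its repressor Blimp-1 had 3.65, 14.2 and 3.55 TPM in spo mutants, against 46.0, 47.5 and 44.7 TPM in wild type (difference -2.78, limma adjusted p = 0.00115). Replicate 2 of the mutants was the highest mutant library for Blimp-1, and so the nearest to wild type. For Cpr66D it was also the highest, but there the farthest from wild type.

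Markers of the cells that make cuticle, and of other cells, moved beside these genes; their counts stand against 33.9% of all tested features higher and 27.9% lower. The lists overlap, since grh and ovo are also among the regulators and Gasp, serp and verm among the chitin genes. The epidermal list summed to 670 to 734 TPM in spo mutants and 899 to 903 TPM in wild type, with 1 of its 7 genes higher and 5 lower. The tracheal list summed to 606 to 632 TPM in spo mutants and 1138 to 1139 TPM in wild type, with 1 of its 7 genes higher and 6 lower. Most of that sum came from serp and verm, while trh, a regulator of tracheal fate, averaged 51.8 TPM in spo mutants and 61.1 TPM in wild type and the tracheal receptor gene btl averaged 64.4 TPM in spo mutants and 47.4 TPM in wild type. The maternal and germ-line list summed to 150 to 189 TPM in spo mutants and 11.7 to 12.01 TPM in wild type, with 7 of its 8 genes higher. Of the muscle markers 2 of 5 were higher and 3 lower, of the neuronal markers 4 of 5 were lower, and of the foregut and hindgut markers 1 of 4 was higher and 1 lower. No marker of these 6 lists was at 0 in all libraries. Their part in the cuticle protein differences was not tested.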

How the data were processed

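The authors deposited TPM values per feature, and a table of log2 fold changes (positive where spo mutants are higher), mean log2 CPM, likelihood-ratio scores, p-values and false discovery rates. Per the submitters' processing notes, FastQC 0.11.2, STAR 2.5.3a, Subread featureCounts, edgeR and the dm6 build were used. The release of the annotation, whether counting used strand, and the handling of overlapping genes were not given in the sources used here. Because TPM is relative, a rise of abundant transcripts lowers all others.

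A feature entered the test with 1 TPM or more in 3 or more libraries, using limma 3.58.1 (R 4.3.3, intensity trend) on log2(TPM + 1), which understates changes of low genes. Folds are ratios of mean TPM. Reads were rebuilt as whole multiples of the TPM step: for 94.6% of features with an annotated exon length that length gave whole reads within 0.0001. Of the cuticle protein genes, Cpr73D, Edg84A and Ccp84Ad needed a searched length. Positions are those of the BDGP6 (dm6) annotation. The fit was tried on simulated data with the same small spread in every library (dispersion 0.001). This does not show how it behaves with an outlying library such as mutant replicate 2. Members and gene lists were chosen with earlier results of these data known. Named genes are the highest of each family, the largest changes past the threshold, and those crossing or nearest 1 TPM; other low genes and cluster neighbours were chosen after their values were seen. Listed genes obst-G, Crys, Tb, Cpap3-e and AANAT1 were not matched by name. Promoter and protein sequences are not analysed here. Alternatives were other pseudocounts, scalings, filters, voom, library weights, the replicate block and leaving out libraries.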

Additional observations from a re-analysis of the deposited data

How the results depend on the processing

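Under the settings listed for the processing, 269 refitted values kept their direction and side of the threshold, 20 lost the call and 8 reversed. Without the filter, 27 cuticle protein genes were higher and 9 lower in spo mutants. voom on features with at least 10 reads, added after seeing the data, called 22 higher and 9 lower. With the mark of an expressed gene at 2 TPM, 16 genes were on in spo mutants and 7 in wild type, and at 0.5 TPM 35 were on in spo mutants and 30 in wild type. Leaving out 1 library at a time gave 11 to 12 higher and 4 to 5 lower. With the replicate number as a block, 12 were higher and 5 lower, and TwdlN lost its call. Same-numbered libraries showed little shared deviation (correlations -0.0275, 0.0450 and 0.129). With 3 libraries per genotype this does not settle whether the numbers pair them. TwdlN lost its call under 10 alternatives (adjusted p 0.0510 to 0.119 in these), Cpr51A under 6 (0.0530 to 0.116) and Cpr57A under 5 (0.0775 to 0.106), in each case including the fits without wild-type replicate 1, wild-type replicate 3 or spo replicate 3, and Cpr78E lost it with voom at 10 reads (0.0560). The differences of Cpr49Ag, Cpr67B and TwdlBeta, which never passed, changed sign. With single libraries left out they ran between -0.16 and 0.18 for Cpr49Ag, between -0.0939 and 0.0477 for Cpr67B (0.0538 with library weights) and between -0.17 and 0.13 for TwdlBeta (0.0142 with voom at 10 reads). The cause was not tested. Depth limits the 30 genes under 10 reads.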

Other observations

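Several low cuticle protein genes had more reads in mutant replicate 2 than in any other library, among them Cpr47Ee and Lcp65Ac. Cpr47Ee had 0, 26 and 2 reads in spo mutants and 6, 2 and 6 reads in wild type, and Lcp65Ac had 0, 9 and 1 reads in spo mutants and 4, 0 and 1 reads in wild type. Cpr67Fb shares exon sequence with an antisense RNA, CR45171, at 4.81, 4.64 and 3.53 TPM in spo mutants and 2.57, 3.12 and 2.24 TPM in wild type. Lcp9 shares exon sequence with CR44067, at 1.03, 1.53 and 0.931 TPM in spo mutants and 0.891, 1.23 and 0.837 TPM in wild type.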
